A study of Mus musculus with 14 samples.

Results

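Mecom, Prdm16, Hlf, Erg, Fli1, Runx1, Etv6 and Myb encode 8 transcription factors that hematopoietic stem cells need for their formation, their maintenance or their output. The 8 genes were taken by name, not by a rule on their values, and with earlier results of these data known. They came from the 38926 gene symbols of the LSK and MyePro count tables. For LT-HSC they were matched by Ensembl gene ID among the 39179 IDs of those count tables. All 8 were found in both sets of tables, and each is followed here in Dpy30 knockout (KO) and control mouse bone marrow cells.

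DPY30 belongs to the core of every SET1- and MLL-type enzyme complex, and these place methyl groups on histone H3 at lysine 4. KO cells carried the genotype Mx1-Cre; Dpy30F/- and control cells Mx1-Cre; Dpy30F/+, so that both carried a Cre transgene that interferon switches on in many cell types. CD45.2+ donor marrow of either genotype had been mixed with CD45.1+ C57Bl/6J competitor marrow and transplanted into irradiated recipients. From 7 weeks after transplantation the recipients of both genotypes received 4 injections of pIpC at 7.5 µg/g, an RNA mimic that induces interferon, and cells were collected 2 weeks after the last one. LSK cells (lineage-negative, Sca-1+, c-Kit+; stem cells and multipotent progenitors) and MyePro cells, myeloid progenitors whose gate and markers the labels do not give, came as 1 KO and 1 control library each, pooled from 2 to 3 mice. Long-term stem cells (LT-HSC) were sequenced as 2 libraries labelled KO and 2 control libraries from transplants 1 and 2, pooled from 7 to 9 mice each and amplified. Each library is therefore a pool of donor-derived cells from chimeras, and the age of the animals is not given.

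Stem cells divide rarely, and each division can yield another stem cell or a cell that differentiates. The 8 factors work at different points of that choice. The PR-domain zinc finger proteins MECOM and PRDM16 and the leucine zipper protein HLF mark the most immature cells. The ETS-domain proteins ERG and FLI1 bind many blood enhancers together with RUNX1, ETV6 is an ETS-domain repressor, and MYB drives the proliferation of progenitors.

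KO and control LSK held 6130320 and 14974432 gene counts, KO and control MyePro 11531994 and 20820762, and the LT-HSC libraries from 38060087 to 85499797. Levels are given as CPM (gene counts scaled to a common library total) after TMM scaling, and CPM is not divided by gene length, so levels are compared between libraries and not between genes. Dpy30 stood at 41.7 CPM in KO LSK and 78.0 CPM in control LSK, and at 51.6 CPM in KO MyePro and 116 CPM in control MyePro. In LT-HSC it stood at 14.1 and 4.67 CPM in the libraries labelled KO from transplants 1 and 2, against 12.9 and 8.43 CPM in the controls, so the first of these was not low in Dpy30 after TMM scaling. Over library totals the 4 values were 8.18 and 5.88 CPM against 15.6 and 9.59 CPM, and the 2 values of libraries labelled KO were the lowest. The libraries labelled KO and the control LT-HSC libraries also differed in sex-linked RNA: Xist stood at 2165 and 1504 CPM against 239 and 150 CPM, and the Y-linked gene Eif2s3y at 0.101 and 0.0587 CPM against 19.6 and 15.4 CPM. In LT-HSC, genotype and this difference cannot be told apart. In all 4 LSK and MyePro libraries Eif2s3y lay between 55.3 and 76.0 CPM and Xist was below 1 CPM.

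Mecom, Prdm16 and Hlf were all lower in KO LSK than in control LSK by more than 3-fold, and the windows of sequence before their annotated starts are shown here because of that shared direction. Mecom lies on chromosome 3 (29951296 to 30509759), Prdm16 on chromosome 4 (154316122 to 154637360) and Hlf on chromosome 11 (90336535 to 90390917), all on the minus strand of GRCm38.p6. The sequences are the 250 bases before a start in RefSeq, written 5′ to 3′ on the strand of the gene, with every CG dinucleotide in capitals. SET1 and MLL complexes are recruited in part through proteins that bind unmethylated CG, which is why the CG positions are marked. The upstream start of Runx1, a gene whose LSK level hardly differed between genotypes, is shown as well. It is 1 of 2 starts of Runx1, and the other held more CG than any sequence shown. Whether CG content bears on the KO ratios was not tested.
Mecom, farthest upstream start, chr3:30509760-30510009: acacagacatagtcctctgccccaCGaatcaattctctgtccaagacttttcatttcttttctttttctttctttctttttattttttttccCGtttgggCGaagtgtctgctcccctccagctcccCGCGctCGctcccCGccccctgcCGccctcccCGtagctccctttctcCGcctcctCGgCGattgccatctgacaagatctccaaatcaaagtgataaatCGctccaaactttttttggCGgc
Prdm16, chr4:154636874-154637123: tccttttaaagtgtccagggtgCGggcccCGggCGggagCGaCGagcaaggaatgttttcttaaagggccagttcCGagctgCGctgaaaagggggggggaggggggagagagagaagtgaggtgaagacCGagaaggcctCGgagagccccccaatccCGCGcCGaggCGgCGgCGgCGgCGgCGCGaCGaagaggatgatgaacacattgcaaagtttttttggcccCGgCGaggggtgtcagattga
Hlf, chr11:90390918-90391167: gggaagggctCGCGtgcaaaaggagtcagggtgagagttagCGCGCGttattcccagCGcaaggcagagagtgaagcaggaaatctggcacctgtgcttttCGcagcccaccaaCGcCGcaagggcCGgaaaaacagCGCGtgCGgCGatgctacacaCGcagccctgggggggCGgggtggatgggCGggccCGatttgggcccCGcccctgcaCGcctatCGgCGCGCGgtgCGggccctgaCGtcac
Runx1, farthest upstream start, chr16:92826075-92826324: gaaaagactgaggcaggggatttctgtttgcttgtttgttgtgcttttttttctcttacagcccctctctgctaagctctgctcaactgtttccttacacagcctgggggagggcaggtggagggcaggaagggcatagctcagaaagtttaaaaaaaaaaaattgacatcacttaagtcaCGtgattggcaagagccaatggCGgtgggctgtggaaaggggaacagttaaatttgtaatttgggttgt

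The whole windows of 300 bases include 50 bases after the start. In these, CG occurred 19 times for Mecom at its upstream start, 24 times for Prdm16 and 30 times for Hlf. The median over all 32851 windows of 27025 genes was 7. Of all windows, 71.9% held fewer than that of Mecom, 80% fewer than that of Prdm16 and 88.3% fewer than that of Hlf. The downstream start of Mecom held 9. Runx1 held 2 at its upstream start and 35 at its downstream start, Etv6 held 17 and Myb held 40. Erg held 16 at its farthest upstream start and 4 and 2 at the others. The count thus varied between starts of 1 gene, and which start these cells used was not measured. Fli1 had no entry in the table of windows.

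Mecom and Prdm16, which encode related proteins, share a stretch of 24 bases just after these starts, found in 2 of the 32851 windows, those of the 2 genes. The stretch is in capitals below and begins at position 27 in Mecom and position 10 in Prdm16, counting the start as position 1. The start of Prdm16 in the table lies inside the annotated span of the gene.
Mecom, chr3:30509710-30509739: tctaacGCGCATGTGCGAAGGTGTCCAAAC
Prdm16, chr4:154636838-154636867: tgtGCGCATGTGCGAAGGTGTCCAAACtga
The motif GGGCGG (GC box) occurred on either strand in 6 of the 11 windows of members, against 35.7% of all windows. CCGGAA, the core bound by ETS proteins, occurred in 2 of 11, against 14.9% of all windows, and TGTGGT, bound by RUNX proteins, in 1 of 11, against 16.8%. These counts rest on 11 windows, some of the same gene, and a match describes letters in the window, not binding.

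Mecom encodes the zinc finger protein EVI1 and its longer PR-domain form, and mice without it lose long-term stem cells. It stood at 10.3 CPM in KO LSK (69 counts) and 41.5 CPM in control LSK (610 counts), 24.8% of its level in control. The log2 ratio of KO over control was -2.00, with a 95% interval of -2.40 to -1.65 that covers counting error only. In MyePro it stood at 1.93 CPM in KO and 1.79 CPM in control (22 and 35 counts), a log2 ratio of 0.09 with an interval of -0.74 to 0.91. No KO difference was detectable at this depth in MyePro, where Mecom was low in both genotypes. The order of levels was control LSK, KO LSK, then both MyePro libraries, which did not differ beyond counting error.

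Prdm16, whose product is needed for stem cell maintenance and for brown fat, was lower in the KO library of both populations. It stood at 2.23 CPM in KO LSK (15 counts) and 18.9 CPM in control LSK (278 counts), and at 1.14 CPM in KO MyePro (13 counts) and 8.41 CPM in control MyePro (164 counts). The log2 ratio was -2.998 in LSK (interval -3.94 to -2.33) and -2.73 in MyePro (interval -3.82 to -2.07). Both KO libraries were below both control libraries, and the 2 KO levels were within counting error of each other. The few counts in KO make the size of these ratios imprecise.

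Hlf, a PAR-type leucine zipper factor that restrains stem cell cycling, was also lower in both KO libraries. It stood at 44.5 CPM in KO LSK and 194 CPM in control LSK, 22.9% of its control (log2 ratio -2.12, with an interval of -2.30 to -1.96). MyePro held 5.86 CPM in KO and 13.9 CPM in control (67 and 272 counts; log2 ratio -1.23, interval -1.66 to -0.86). With counts thinned to equal depth the MyePro ratio was -0.76, short of 2-fold. The 4 levels ran from control LSK, the highest, through KO LSK and control MyePro to KO MyePro, each apart from the next beyond counting error.

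In bulk libraries such as these, fewer cells of a type and less RNA per cell cannot be told apart. Of 8 surface markers of stem cells and multipotent progenitors, 2 lay 2-fold or more below control in KO LSK and none lay that far above it, with a summed level of 1580 CPM in KO LSK and 1681 CPM in control LSK and no marker at 0. The 2 were Flt3, a receptor of multipotent and lymphoid progenitors (35.3 against 122.8 CPM), and Slamf1, the stem cell antigen CD150 (5.95 against 14.3 CPM). Procr, a stem cell surface receptor, stood at 12.4 CPM in KO LSK and 13.9 CPM in control LSK, and Kit at 386 and 491 CPM. Ly6a went the other way, at 61.2 CPM in KO LSK and 31.5 CPM in control LSK. Its log2 ratio of 0.95 after TMM scaling lay just short of 2-fold higher. Of 8 T and NK cell markers, 3 reached 5 CPM and all 3 were at least 2-fold higher in KO LSK. The list summed to 575 CPM in KO LSK and 203 CPM in control LSK, mostly from Nkg7 (443 and 197 CPM). Gzmb stood at 103 and 4.62 CPM. Cd3e, Cd3g and Gzma had 1, 2 and 7 counts in KO LSK and 0 in control LSK, while Ncr1 had 1 and 5. Of 8 macrophage and neutrophil markers, 5 reached 5 CPM and 4 of them were at least 2-fold higher in KO LSK, with sums of 238 and 82.7 CPM and with S100a8 and S100a9 at 0 in control and Ly6g at 0 in both. Of the lineage markers, Itgam stood at 118 CPM in KO LSK and 23.4 CPM in control LSK, while Ms4a1 and Ly6g were at 0 in both. The part of other cell types in the levels of Mecom, Prdm16 and Hlf was not tested.

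**Figure D1:**
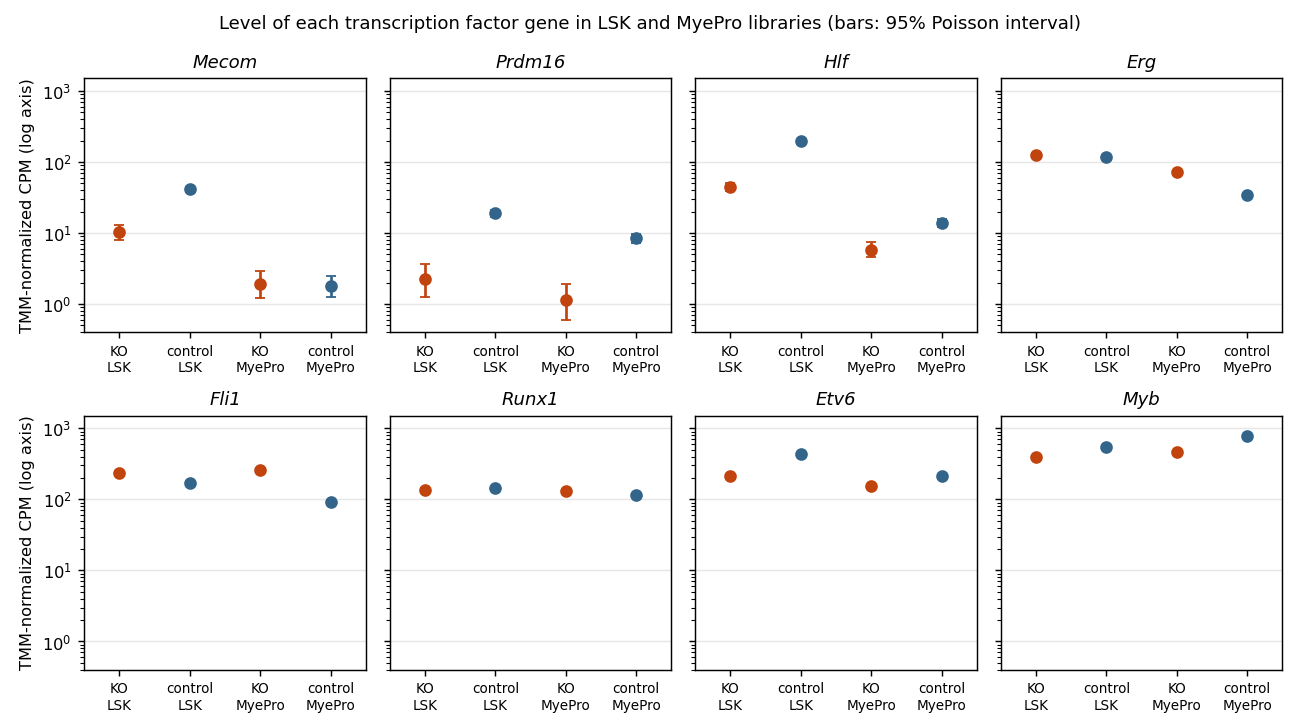
TMM-normalized CPM (log axis) of the 8 genes in the KO and control library of LSK and MyePro, 1 library per point, with exact 95% Poisson intervals that cover counting error only. Mecom, Prdm16 and Hlf are lower in KO LSK than in control LSK, while Erg and Fli1 are higher in KO MyePro than in control MyePro.

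The ETS activators Erg and Fli1 were at least 2-fold higher in KO MyePro than in control MyePro. In LSK, Erg differed little and Fli1 was higher in KO by less than 2-fold. Erg (chromosome 16, 95359169 to 95586600), required to sustain stem cells under demand, stood at 126 CPM in KO LSK and 119 CPM in control LSK (log2 ratio 0.08, interval -0.04 to 0.20). Its MyePro level was 72.6 CPM in KO and 33.8 CPM in control, a log2 ratio of 1.10 (interval 0.95 to 1.25). The 2 LSK levels did not differ beyond counting error, and control MyePro was the lowest of the 4 libraries.

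Fli1 (chromosome 9, 32422204 to 32543432), which also drives megakaryocyte genes, stood at 237 CPM in KO LSK and 171 CPM in control LSK (log2 ratio 0.47, interval 0.38 to 0.56). MyePro held 263 CPM in KO and 90.9 CPM in control, 2.89-fold higher in KO (log2 ratio 1.53, interval 1.45 to 1.62). KO MyePro was the highest library for Fli1 and control MyePro the lowest. Beside Erg and Fli1 on the chromosomes lie their paralogs Ets2 and Ets1. Ets1 stood at 54.5 CPM in KO MyePro and 15.4 CPM in control MyePro (log2 ratio 1.81), while the log2 ratio of Ets2 was 0.43.

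Megakaryocyte markers moved with Erg and Fli1 in MyePro. Of 10 markers, 9 were at least 2-fold higher in KO MyePro, and their summed level was 2055 CPM in KO and 204 CPM in control, with Gp6 at 0 in control and none at 0 in KO. The platelet chemokine gene Pf4 stood at 602 CPM in KO MyePro and 45.5 CPM in control MyePro. In LSK, where Fli1 differed by less than 2-fold, the same list summed to 1105 CPM in KO and 685 CPM in control, and 3 of 9 markers at or above 5 CPM were at least 2-fold higher and 1 lower. Endothelial markers, of a cell type that also uses Erg and Fli1, summed to 266 CPM in KO MyePro and 109 CPM in control MyePro, 3 of 5 at or above 5 CPM being 2-fold or more higher in KO, with Sox17 at 0 in both and Cdh5 at 2.19 and 0.205 CPM. T and NK cell markers summed to 644 CPM in KO MyePro and 211 CPM in control MyePro, and macrophage and neutrophil markers to 565 and 133 CPM. The part of these cell types in the Erg and Fli1 levels was not tested.

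Etv6 (chromosome 6, 134035700 to 134270158), the ETS repressor that adult stem cells need to survive in marrow, was lower in KO. It stood at 214 CPM in KO LSK and 433 CPM in control LSK, 49.5% of its control (log2 ratio -1.02, with an interval of -1.10 to -0.93). MyePro held 152 CPM in KO and 216 CPM in control (log2 ratio -0.51, interval -0.59 to -0.43). The LSK ratio lay at the 2-fold threshold and missed it when library totals replaced TMM (-0.86), as it did with RLE size factors and with thinned counts. KO LSK and control MyePro were at a similar level, and control LSK was the highest.

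Runx1 (chromosome 16, 92601466 to 92826074), which starts the blood program in the embryo, had the smallest KO ratio of the 8 in LSK under TMM scaling. It stood at 138 CPM in KO LSK and 144 CPM in control LSK (log2 ratio -0.07, interval -0.18 to 0.04), with a ratio of 0.09 when library totals were used, so its direction in LSK was not settled. KO MyePro held 129 CPM and control MyePro 114 CPM (log2 ratio 0.18, interval 0.08 to 0.27). Cbfb, the partner subunit of RUNX1, stood at 246 CPM in KO LSK and 270 CPM in control LSK, and at 211 CPM in KO MyePro and 174 CPM in control MyePro.

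Myb (chromosome 10, 21124930 to 21160984), needed for progenitor proliferation and red cell formation, was lower in both KO libraries by less than 2-fold. It stood at 389 CPM in KO LSK and 546 CPM in control LSK (log2 ratio -0.49, interval -0.55 to -0.43), and at 466 CPM in KO MyePro and 781 CPM in control MyePro (log2 ratio -0.74, interval -0.79 to -0.70). Both KO libraries lay below both controls for Myb, as for Prdm16. Erythroid markers moved in the same direction: 7 of 9 lay 2-fold or more below control in KO MyePro and 1 above, with a summed level of 442 CPM in KO and 3551 CPM in control. In LSK all 8 erythroid markers at or above 5 CPM were at least 2-fold lower in KO, with 82.4 CPM in KO and 838 CPM in control, and none was at 0. The part of erythroid cells in the Myb level was not tested.

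Counted at a 2-fold difference where the mean of both libraries reached 5 CPM, 4 of the 8 members were lower in KO LSK and 0 were higher. Over all 10299 genes measured at that level, 5.67% were lower and 4.78% higher (584 and 492 genes). With library totals in place of TMM, 457 genes were lower and 648 higher, and 3 members were lower, Etv6 no longer among them. The median log2 ratio of the 8 members was -0.75, against -0.06 over all genes. The members were chosen with earlier results of these data known, so the values set beside all genes are descriptive. In MyePro, 6 members reached 5 CPM, of which 2 were higher (Erg and Fli1) and 1 lower (Hlf) in KO, where 10.7% of all 10249 genes were higher and 8.63% lower. Prdm16, with a mean of 4.77 CPM, and Mecom, with a mean of 1.86 CPM, were the 2 members left out of that count. The median over all 8 was -0.21 in MyePro, against -0.12 over all genes.

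The KO ratios of LSK and MyePro were set against each other by their difference, with an interval for counting error. For Mecom the LSK ratio was lower by 2.09 on the log2 scale (difference -2.09, interval -2.94 to -1.24). The differences were -1.06 for Fli1 (interval -1.18 to -0.93), -1.02 for Erg (interval -1.20 to -0.83) and -0.90 for Hlf (interval -1.32 to -0.47). For Etv6 the difference was -0.51 and for Runx1 -0.25, and Myb had the opposite sign at 0.25. Prdm16 did not differ beyond counting error (-0.27, interval -1.38 to 0.84). With 1 library per group the spread between pools is unknown, and these intervals are too narrow as a measure of it.

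**Figure D2:**
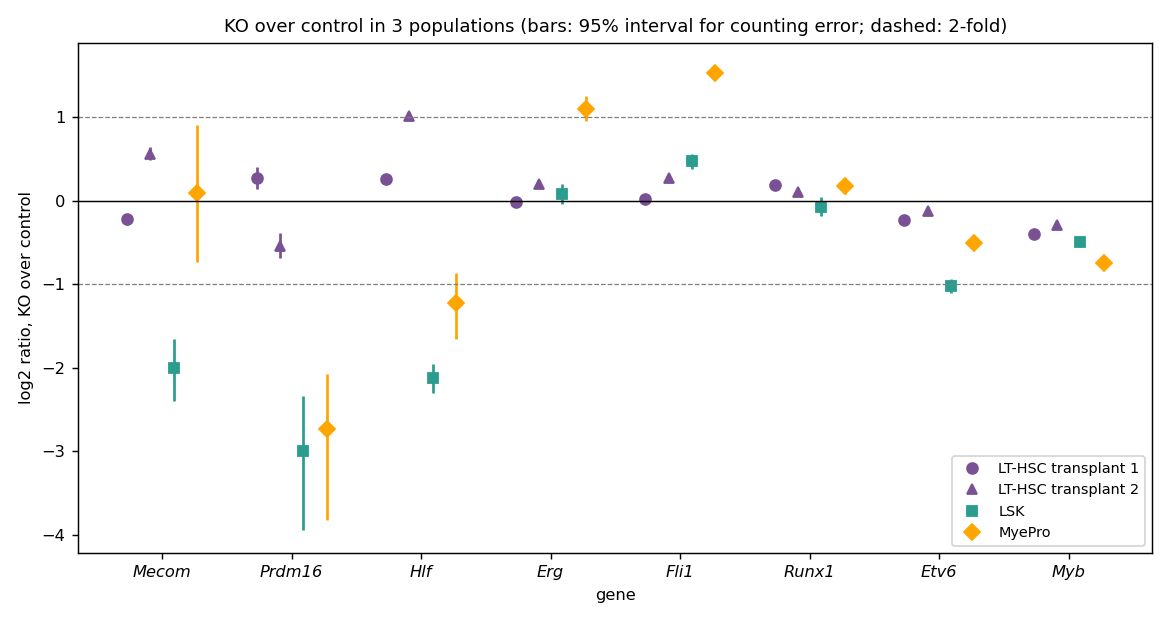
Log2 ratio of KO over control for each gene in LT-HSC transplants 1 and 2 (circles and triangles), LSK (squares) and MyePro (diamonds), with 95% intervals for counting error and dashed lines at 2-fold. LSK lies at -2.00 for Mecom, -2.998 for Prdm16 and -2.12 for Hlf, and the LT-HSC ratios of these genes lie on both sides of 0 for Mecom and Prdm16 and, after TMM scaling, above 0 for Hlf.

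LSK against MyePro asks how each factor's level differs between immature and more differentiated cells. In KO, 2 of 7 members at or above 5 CPM were at least 2-fold higher in LSK (Mecom and Hlf) and 0 lower, where 1.49% of all 10345 genes were higher and 3.28% lower (154 and 339 genes, or 234 and 246 with library totals). In control, 5 of 8 were at least 2-fold higher in LSK (Mecom, Prdm16, Hlf, Erg and Etv6) and 0 lower, where 6.87% of all 10074 genes were higher and 3.17% lower. The median log2 ratio of the 8 was 0.65 in KO and 1.08 in control, against -0.01 and -0.08 over all genes. Etv6 in control lay at the threshold (1.00) and missed it with RLE size factors.

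By gene, the LSK over MyePro log2 ratio of Mecom was 2.33 in KO (interval 1.70 to 3.18) and 4.42 in control (interval 4.04 to 5.07). For Hlf the ratios were 2.89 in KO (interval 2.54 to 3.33) and 3.79 in control (interval 3.62 to 3.99). Erg stood at 0.79 in KO and 1.81 in control, Etv6 at 0.50 and 1.00, and Runx1 at 0.09 and 0.34. Fli1 was the 1 member whose ratio had opposite signs, -0.15 in KO (interval -0.24 to -0.06) and 0.91 in control (interval 0.82 to 1.00), and with library totals the KO ratio was -0.0022, close to no difference. Prdm16 stood at 0.89 in KO (interval -0.20 to 2.16) and 1.16 in control (interval 0.89 to 1.46), which overlap. Myb alone was higher in MyePro in both genotypes, with ratios of -0.26 in KO and -0.52 in control. These ratios use the same 4 libraries as the KO ratios above, so the smaller LSK over MyePro ratio of Mecom, Hlf, Erg and Fli1 in KO is the same difference seen from the other side.

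**Figure D3:**
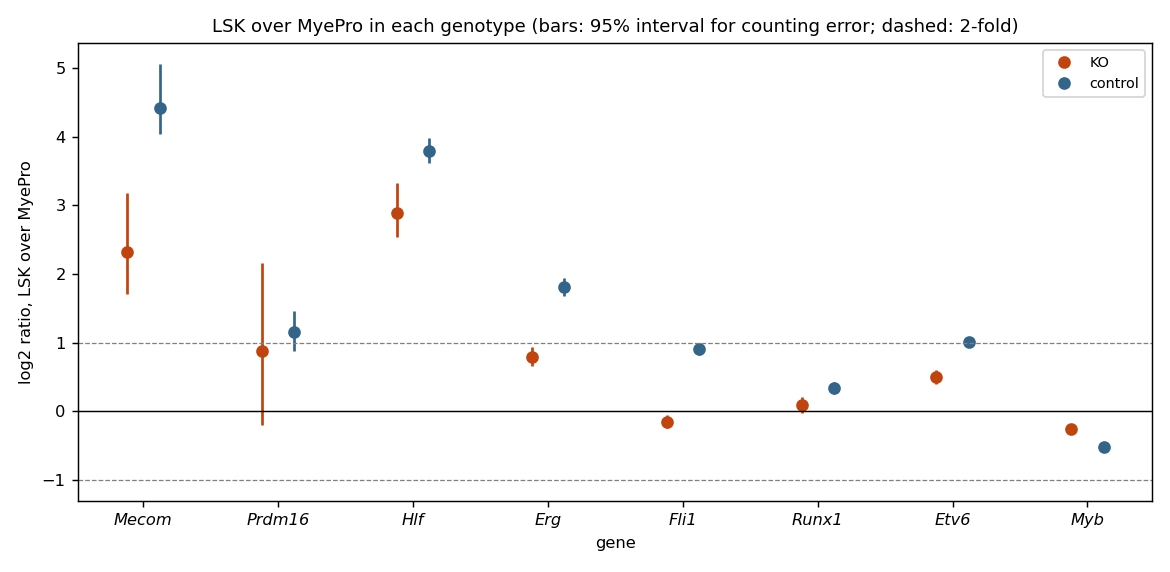
Log2 ratio of LSK over MyePro for each gene in KO and in control (1 library per group), with 95% intervals for counting error and dashed lines at 2-fold. Control points lie above KO points for 7 genes and below for Myb, and the intervals of Prdm16 overlap.

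In LT-HSC, the stem cell population, 0 of the 8 genes passed the threshold in edgeR's quasi-likelihood test with Benjamini-Hochberg adjustment, 0 had an unadjusted p under 0.05, and DESeq2 called 0. Over all 12844 genes tested, 0.0156% passed (2 genes) and 2.29% had an unadjusted p under 0.05. The 2 that passed were the Y-linked genes Kdm5d and Eif2s3y, both lower in the libraries labelled KO (edgeR adjusted p of 0.0433 each). Each member had an adjusted p of 0.999 in this edgeR test. The 2 libraries labelled KO were both under the 2 controls for 1 member, Myb, and both over them for 0, where 13.9% of all genes lay below and 13.8% above.

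Mecom stood at 75.0 and 70.3 CPM in the libraries labelled KO and at 87.5 and 47.4 CPM in control, transplants 1 and 2 in each case. The KO values lay between the 2 controls, and the edgeR log2 fold change came to 0.11 ± 0.337 (SE, n = 2 in each group; 95% interval -0.69 to 0.90). Within transplants the log2 ratio was -0.22 in the first and 0.57 in the second. The difference was smaller than the spread between the control pools.

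Prdm16 stood at 22.3 and 11.0 CPM in the libraries labelled KO and at 18.5 and 15.9 CPM in control. The KO values lay on either side of the controls, and the edgeR log2 fold change came to -0.05 ± 0.427 (SE, n = 2 in each group; interval -1.06 to 0.96). Within transplants it was 0.27 in the first and -0.54 in the second. Over library totals the KO values, 12.9 and 13.8 CPM, both lay below the control values, 22.2 and 18.1 CPM.

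Hlf stood at 291 and 241 CPM in the libraries labelled KO and at 242 and 119 CPM in control. The groups met, with the second KO library just below the first control, and the edgeR log2 fold change came to 0.56 ± 0.371 (SE, n = 2 in each group; interval -0.32 to 1.44). With transplant as a replicate block the value was 0.64 with an unadjusted p of 0.0327 (edgeR), and its adjusted p stayed above 0.05. Within transplants the ratio was 0.26 in the first and 1.02 in the second. The first of these depends on the scaling: over library totals Hlf stood at 169 CPM in KO 1 and 292 CPM in control 1, and at 304 CPM in KO 2 and 135 CPM in control 2. Without control 1 the value was 1.17, and without control 2 it was 0.15.

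The LSK ratios of Mecom (-2.00), Prdm16 (-2.998) and Hlf (-2.12) lay below the LT-HSC intervals of the same genes. Whether the populations differ was not tested, since the LT-HSC libraries were amplified and the others were not. Without the first library labelled KO, in which Dpy30 was not low after TMM scaling, the LT-HSC values were 0.06 for Mecom, -0.65 for Prdm16 and 0.42 for Hlf, and none of the 8 was called.

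Erg stood at 195 and 213 CPM in the libraries labelled KO and 196 and 185 CPM in control (log2 fold change 0.10 ± 0.243, SE). Fli1 stood at 108 and 164 CPM against 107 and 135 CPM (0.17 ± 0.301), and Runx1 at 133 and 179 CPM against 117 and 166 CPM (0.15 ± 0.297). In Fli1, Runx1 and Etv6 the transplants differed more than the genotypes. Etv6 stood at 188 and 117 CPM in the libraries labelled KO and 221 and 127 CPM in control (-0.19 ± 0.368). Myb stood at 136 and 167 CPM against 180 and 204 CPM, with both KO values below both controls (-0.34 ± 0.257, interval -0.95 to 0.27). The 95% intervals of Prdm16 and Etv6 (-1.06 to 0.68) reached past a 2-fold fall, and those of the other 6 members did not.

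**Figure D4:**
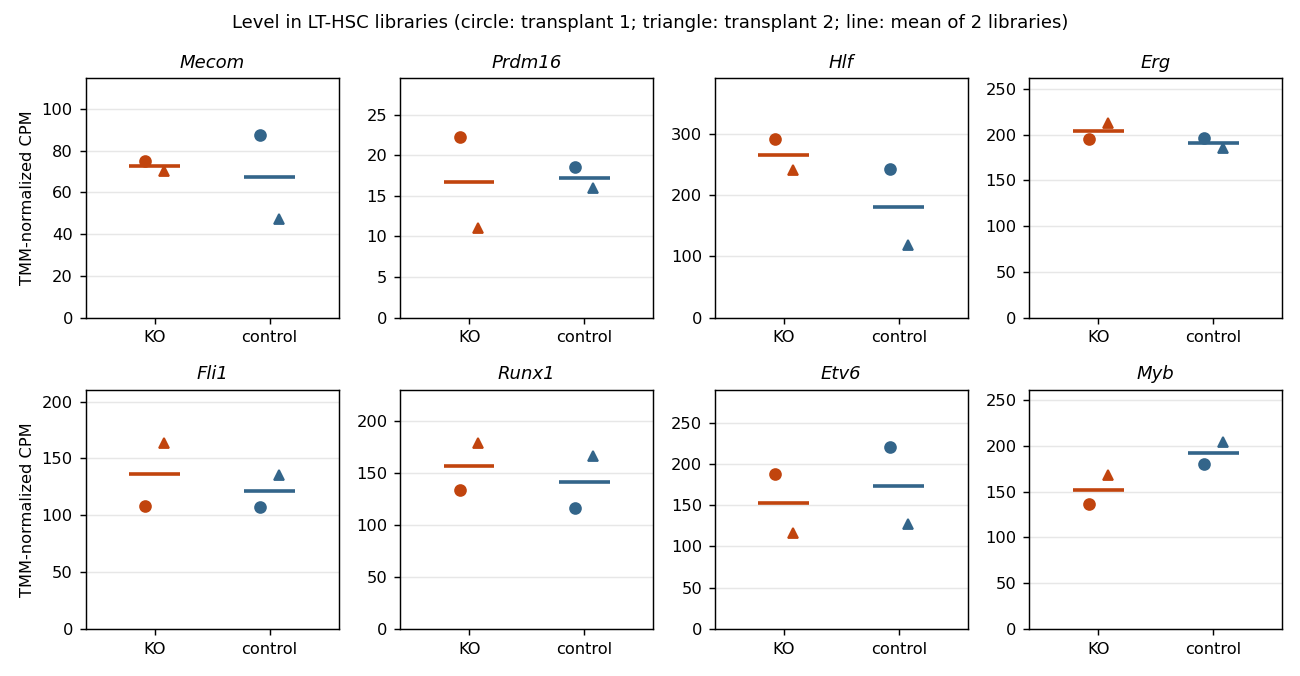
TMM-normalized CPM of the 8 genes in the LT-HSC libraries labelled KO and control, with circles for transplant 1, triangles for transplant 2 and lines for the mean of 2 libraries. Both KO libraries lie below both controls for Myb, and the groups overlap for the other 7 genes.

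Stem cell surface markers in LT-HSC summed to 405 and 435 CPM in the libraries labelled KO and 537 and 304 CPM in control, and 0 of 8 passed the edgeR threshold. Erythroid markers summed to 49.3 and 52.1 CPM against 122 and 92.7 CPM, and 0 of 9 passed, with 3 lower at an unadjusted p under 0.05. The Myb value lay in the same direction, with an interval of -0.95 to 0.27 that includes 0. The part of erythroid cells in it was not tested. Other markers stood apart by transplant: myeloid progenitor markers summed to 91.5 CPM in the library labelled KO and 85.1 CPM in control of transplant 1, and to 301 and 407 CPM in transplant 2. T and NK cell markers summed to 11.2 and 13.1 CPM in transplant 1 and to 45.2 and 53.5 CPM in transplant 2. Their part in the transplant differences of Fli1, Runx1 and Etv6 was not tested. Mitochondrial ribosomal RNA took 62.4% and 49.3% of gene counts in the libraries labelled KO and 45.1% and 49.6% in control.

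A list of 30 other regulators of hematopoietic stem cells gave the wider setting. In KO LSK, 28 of them reached 5 CPM, with a median log2 ratio of -0.33. Of these 28, 7 lay 2-fold or more below control and 1 above, where 5.67% of all genes were lower and 4.78% higher. Hoxa9 and Hoxa10, homeobox targets of MLL1 in stem cells, were among the 7. Hoxa10 stood at 0.595 CPM in KO LSK (4 counts) and 16.0 CPM in control LSK, and Hoxa9 at 3.57 and 41.5 CPM. Hoxb4, whose forced expression expands stem cells, was the 1 higher, at 8.03 against 2.72 CPM.

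In KO MyePro, 6 of 24 such regulators were at least 2-fold higher than in control and 5 were lower. Of all genes, 10.7% were higher and 8.63% lower. Hoxa9 stood at 1.14 CPM in KO MyePro and 24.9 CPM in control MyePro. Gfi1b, an erythroid and megakaryocyte repressor, stood at 51.8 and 196 CPM, and Mllt3, a stem cell maintenance factor, at 18.8 and 57.7 CPM. Mycn, which acts with Myc in stem cell proliferation, stood higher, at 48.4 CPM in KO MyePro and 8.51 CPM in control MyePro.

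Between populations, LSK was at least 2-fold above MyePro for 2 of 25 regulators in KO, with 1 lower. In control it was above for 8 of 25, with 0 lower. Of all genes, 1.49% were higher in LSK and 3.28% lower in KO, and 6.87% higher and 3.17% lower in control. Gata3 had log2 ratios of 1.81 in KO and 2.98 in control, and in KO Zfp521 stood at 1.09 and the immediate early factor Egr1 at -1.30. Meis1, a HOX cofactor, was at 2.58 in control, Hoxa10 at 2.72 and Mycn at 2.65.

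Of 37 relatives from the PRDM, PAR zipper, ETS, RUNX and MYB families, 28 reached 5 CPM in LSK. In KO, 3 of these lay 2-fold or more below control and 0 above, where 5.67% of all genes were lower and 4.78% higher. Among the 3 were Prdm10 (2.68 CPM in KO LSK and 7.61 CPM in control LSK) and Etv5 (24.9 and 58.0 CPM). In MyePro, 1 of 26 was higher (Ets1) and 3 lower, against 10.7% and 8.63% of all genes. The 3 were Etv5, at 13.7 CPM in KO and 37.4 CPM in control, the cell-cycle factor Mybl2, at 49.6 and 113 CPM, and Prdm15, at 7.27 and 15.0 CPM. LSK was at least 2-fold below MyePro for 1 of 26 relatives in KO, Ets1 (21.4 CPM in KO LSK and 54.5 CPM in KO MyePro). It was above MyePro for 1 of 28 in control, Runx2 (85.5 CPM in control LSK and 42.3 CPM in control MyePro). Over all genes these shares were 3.28% lower in KO and 6.87% higher in control. In LT-HSC, 0 of the 30 regulators and 0 of the 33 relatives tested passed the edgeR threshold, and 2 regulators and 0 relatives had an unadjusted p under 0.05.

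**Figure D5:**
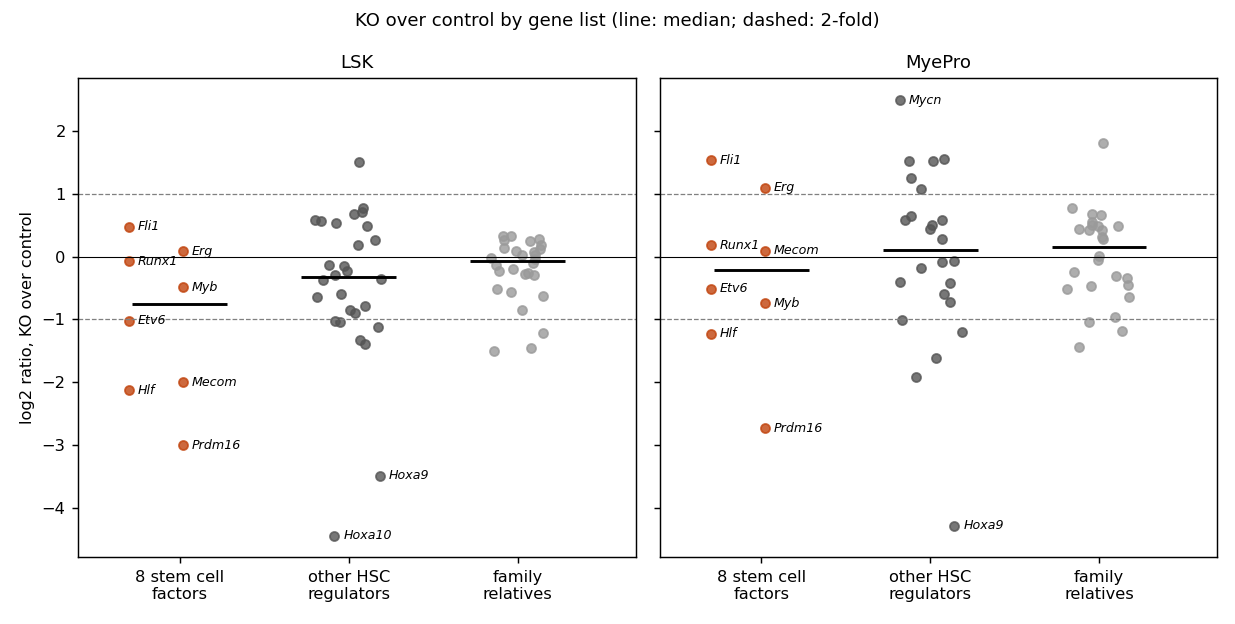
Log2 ratio of KO over control in LSK and MyePro for the 8 factors, for other regulators of hematopoietic stem cells and for relatives of the 8 by family (the last 2 lists at a mean of at least 5 CPM), with lines at the medians and dashed lines at 2-fold. In LSK the medians are -0.75 for the 8 factors, -0.33 for the other regulators and -0.07 for the relatives.

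Likeness of pattern was measured as the Euclidean distance between log2 CPM profiles centred over the 4 LSK and MyePro libraries, among 9696 genes. Among the members the closest pairs were Runx1 and Myb (0.94), Mecom and Hlf (0.94), Runx1 and Etv6 (0.98) and Erg and Fli1 (1.01). The genes nearest to Mecom were Col16a1 (0.73), Casp12 (0.81) and Hdgfrp3 (1.12), and those nearest to Hlf were Col16a1 (1.01), Cd74 (1.09) and H2-Aa (1.11). For Prdm16 they were Rhobtb3 (0.27), Cd27 (0.59) and H1fx (0.60). Rhobtb3 stood at 4.91 CPM in KO LSK and 38.3 CPM in control LSK, and at 2.80 CPM in KO MyePro and 15.1 CPM in control MyePro, low in both KO libraries like Prdm16.

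Erg was nearest to Vsig10 (0.07), Calcrl (0.09) and Rhoq (0.10), and Fli1 to Fam110b (0.04), Zfp945 (0.07) and Abca1 (0.07). Runx1, with little difference between libraries, was nearest to Tapbpl (0.01), Cyld (0.02) and Sp110 (0.04), and Etv6 to Nr2c2 (0.11), Gprasp1 (0.12) and Asap2 (0.12). Myb was nearest to Cars (0.04), Hbs1l (0.04) and Trak2 (0.05). Hbs1l is also one of the coding neighbours of Myb on chromosome 10, 134995 bases away, where Ahi1 lies nearer on the other side at 44501 bases. Hbs1l stood at 49.5 CPM in KO LSK, 71.2 CPM in control LSK, 61.7 CPM in KO MyePro and 99.8 CPM in control MyePro. With 4 libraries a small distance describes similar centred log2 levels, not always a shared order, and carries no test. For Runx1 and Myb, the closest pair of members, control MyePro was the lowest library of Runx1 and the highest of Myb.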

How the data were processed

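RNA-seq counts of 8 of the 14 samples in the series were used, and 6 ChIP samples were not analysed here. The deposited files hold raw counts per gene, 1 per library. Per the labels' protocols, polyA RNA was selected in 2 rounds, and a kit (Ovation RNA-seq System V2) amplified that of LT-HSC. Per the submitters' processing notes, TopHat2, HTSeq 0.6.0, DESeq 3.0, Picard 1.126 and CASAVA 1.8.4 were among the tools and the build was mm10. What each tool did, which annotation was counted and whether strand was used are not stated in these sources, so reads of overlapping noncoding genes, which RefSeq lists for Mecom, Prdm16, Fli1, Runx1 and Etv6, could enter the counts. Reads with no feature were 2.40% to 6.25% of LSK and MyePro files and 16.7% to 26.0% of LT-HSC files. Entries that name no gene, and an entry DPY30-SPKIG that the labels do not explain, were left out. Of the LT-HSC IDs, 37607 (96.0%) matched a symbol.

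The 2 sets of libraries were normalized apart. LT-HSC counts were tested with edgeR 4.0.16 in R 4.3.3 (TMM, at least 1 CPM in at least 2 libraries, quasi-likelihood test, two-sided, Benjamini-Hochberg adjusted p under 0.05), after a check on simulated data, with DESeq2 1.42.0 as an alternative. Per the labels the library number is that of the transplant, so equal numbers pair the libraries, and their deviations from the group means correlated at 0.29 across genes. Each library is a pool, so the p-values measure the spread between pools. LSK and MyePro have 1 library per group: log2 ratios of TMM-normalized CPM used a prior count of 2, a threshold of 2-fold and a mean of at least 5 CPM, with exact binomial 95% intervals. Marker sums are in TMM-normalized CPM, and Hbb-b1 had no entry, so 9 of 10 erythroid markers were measured.

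The members, gene lists and tests were chosen with earlier results of these data known. Named beside the members were, per list and comparison, up to 4 genes with the largest ratio past 2-fold and, per member, the 3 genes of nearest profile; a few genes that the rule names are not reported here. Cbfb, Ets2, the sex-linked genes and the single markers fall outside that rule and were chosen after their values were seen, as partner, neighbour or defining markers. Coordinates and sequences are from RefSeq on GRCm38.p6, which gave windows for 7 of the 8 members. The alternatives were other scalings, filters, thresholds and prior counts, thinned counts, DESeq2, the replicate block and leaving out each LT-HSC library.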

Additional observations from a re-analysis of the deposited data

Results flagged for a closer look

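Hlf differed in direction between populations. KO over control was higher in both LT-HSC transplants, with TMM-scaled log2 ratios of 0.264 and 1.02, and lower in LSK, at -2.12, and in MyePro, at -1.23. Over library totals the first transplant turned round, with 169 CPM in KO 1 and 292 CPM in control 1, in a KO library where mitochondrial ribosomal RNA took 62.4% of gene counts. The LT-HSC libraries were amplified and normalized apart from the others, LSK and MyePro have 1 library per group, and the difference between populations was not tested.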

How the results depend on the processing

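In LT-HSC, 0 of 8 members were called under each of the 9 alternatives run, the replicate block included, which paired the libraries by transplant and moved the log2 fold change of Mecom to 0.17, of Prdm16 to -0.13 and of Hlf to 0.64. Over all genes the edgeR count was 2 with the standard settings, 4 with library totals, 4 with the block, 0 without either control, and DESeq2 called 14. Sign changed in 12 of 72 recomputed LT-HSC fold changes. With library totals, which moved the median of all genes to -0.35, Mecom was at -0.27, Erg at -0.23, Fli1 at -0.069 and Runx1 at -0.12. Leaving out 1 library gave ranges of -0.26 to 0.62 for Mecom, -0.65 to 0.37 for Prdm16, 0.15 to 1.17 for Hlf, 0.03 to 0.16 for Erg, -0.16 to 0.44 for Fli1, -0.084 to 0.44 for Runx1, -0.58 to 0.27 for Etv6 and -0.50 to -0.20 for Myb. The signs reversed at Mecom without control 2, at Prdm16 without control 1 (0.07) and without KO 2, at Fli1 without KO 2, at Runx1 without control 1 (-0.079) and without KO 2 (-0.084), and at Etv6 without control 1 and without KO 2 (0.11). A fit without 1 library assumes that the lone library varies like the other group. In LSK, library totals moved the median of all genes to 0.09 and of the 8 members to -0.59, and the share of 2-fold genes that were higher in KO to 58.6% in place of 45.7%. In LSK against MyePro in KO they moved the medians to 0.13 over all genes and 0.79 over the members, and the share higher in LSK to 48.8% in place of 31.2%. The counts of members past 2-fold stayed within 1.5 times under each alternative run, and the causes of these shifts were not tested. Depth limits Prdm16 in KO LSK and KO MyePro and Mecom in MyePro most, at 13 to 35 counts.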
